A study of Mus musculus with 16 samples.

Results

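Chemokine ligands are small secreted proteins that attract leukocytes, and their transcripts were followed here in the stomach of mice of 2 genotypes and 2 conditions. Members were all rows of the count table with a symbol made of Ccl, Cxcl, Cx3cl or Xcl, a number and at most 1 further letter. Of 24964 gene symbols, 39 fitted this rule. At least 10 counts in at least 4 libraries were found for 20 of them, which are described below, and the other 19 are listed as low. Sequencing covered 16 libraries, 4 in each of 4 groups, made from 4 mm pieces taken at the lesser curvature in the corpus, the acid-secreting body of the stomach. All mice were female and 8 weeks old. WT-S and WT-A came from C57BL/6 mice of wild-type genotype. TTP-S and TTP-A came from congenic C57BL/6 mice of genotype TTP{delta}ARE, written TTPΔARE below. In this allele an AU-rich element in the 3' untranslated region (UTR) of Zfp36, the gene for tristetraprolin (TTP), is deleted in the germ line. It is therefore present in every cell type. The treatment label of both A groups is gastric inflammation induced by adrenalectomy, the removal of the adrenal glands, and that of both S groups is spasmolytic polypeptide-expressing metaplasia (SPEM). The labels do not say whether S mice were operated on, and S and A serve only as names of groups. The labels number the replicates without stating that each is a separate animal, so p-values measure the spread between these libraries.

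Each chemokine acts through receptors coupled to G proteins on the cells it attracts, and the names of ligands and receptors follow the same classes: CCL ligands bind CCR receptors and CXCL ligands bind CXCR receptors. In the stomach, resident macrophages, fibroblasts, endothelium and epithelium are all known sources. Glucocorticoids from the adrenal cortex hold down many inflammatory chemokines. TTP binds AU-rich elements in the 3' UTR of a transcript and speeds its decay, and several neutrophil-attracting CXCL transcripts are among its best-known targets.

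Because the altered allele is that of TTP, the 3' UTRs of the 20 ligands were searched for its binding letters. The nonamer TTATTTATT, its core heptamer TATTTAT and the pentamer ATTTA were searched on the transcript's own strand in the longest basic protein-coding transcript of each gene (GENCODE vM21, GRCm38). Every nonamer holds the heptamer, and every heptamer holds the pentamer. The sites shown are those of the 5 ligands that have the heptamer, with the heptamer in capitals, or the nonamer where there is one, and up to 11 flanking bases on each side.
Cx3cl1: cagtgaacaaTTATTTATTggattcccag
Cxcl1, first nonamer: atttatgtatTTATTTATTccacaaagtg
Cxcl1, second nonamer: agaatgtcagTTATTTATTgaaagtcgtc
Ccl12: gggcagtgtgaTATTTATtatgatatcta
Ccl22: agctatagttaTATTTATataggaaagag
Cxcl12: accagctgctgTATTTATgtgcttcataa
Cxcl1 has 6 heptamers in its 592-base 3' UTR, 4 of them in a run that starts 87 bases after the stop codon, and the first nonamer shown belongs to that run. The nonamer was present in 2 of 20 ligands (10%), against 7.77% of 14494 genes with at least 10 counts in at least 4 libraries. The heptamer was present in 5 of 20 (25%, against 29.4%) and the pentamer in 14 of 20 (70%, against 68.6%). These shares lie near those of all genes, and the median 3' UTR was 900.5 bases in the ligands against 1127.5 bases. No pentamer was found in the 3' UTRs of Ccl24, Ccl8, Cxcl14, Cxcl17, Ccl25 and Ccl27a. Among the low ligands, Cxcl2 had 4 nonamers and Cxcl3 had 1. A match describes the letters only.

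Each library held between 17453930 and 25849472 counts. Levels are given as CPM, counts relative to the scaled library total. Zfp36, the gene that carries the altered allele, stood at 55.1 to 88.6 CPM in the 8 WT libraries and at 110.5 to 131 CPM in the 8 TTPΔARE libraries, with no overlap. Parietal and chief cell genes, which define the corpus, were high in all libraries, with summed levels of 18720 to 27690 CPM for 7 parietal cell genes and 48990 to 153400 CPM for 6 chief cell genes. In WT-A 3 and WT-A 4, expression relative to the other libraries rose with the GC content of genes (Spearman's rho across 11493 genes of 0.716 and 0.738, against absolute values of at most 0.302 elsewhere). Calls of ligands and receptors that rest on these libraries are therefore given with 16 and with 14 libraries. Genes of the cell type lists were tested with 16 libraries only. In whole tissue, fewer cells of a type and less RNA per cell cannot be told apart.

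Per kilobase of transcript, Cxcl17 had the highest level of the 20 ligands in all 4 groups. Cxcl17, a mucosal chemokine of the stomach and airway epithelium, had 92.8 to 124 CPM per kb as group means. Ccl11 (eotaxin-1), which attracts eosinophils, followed at 27 to 31.2 CPM per kb. Then came Cxcl12 at 11.4 to 14.3, Cx3cl1 at 9.87 to 12.4 and Cxcl16 at 7.30 to 8.98 CPM per kb. Cxcl12 is the homeostatic ligand of Cxcr4, and Cx3cl1 and Cxcl16 are the membrane-anchored members of the family. The last 3 are neighbours whose means ± SD overlap in part of the groups, as the plot of levels per transcript length shows. At the other end, Cxcl1, Cxcl9 and Cxcl10 had means of 0.105 to 0.358 CPM per kb. Cxcl12 and Cxcl17 together took 48.6% to 59.4% of all chemokine ligand counts in a library. Summed over all 39 members, the level was 284 CPM for WT-S, 311 for WT-A, 252 for TTP-S and 285 for TTP-A. The called ligands with the largest folds were among those of low and middle level.

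**Figure D1:**
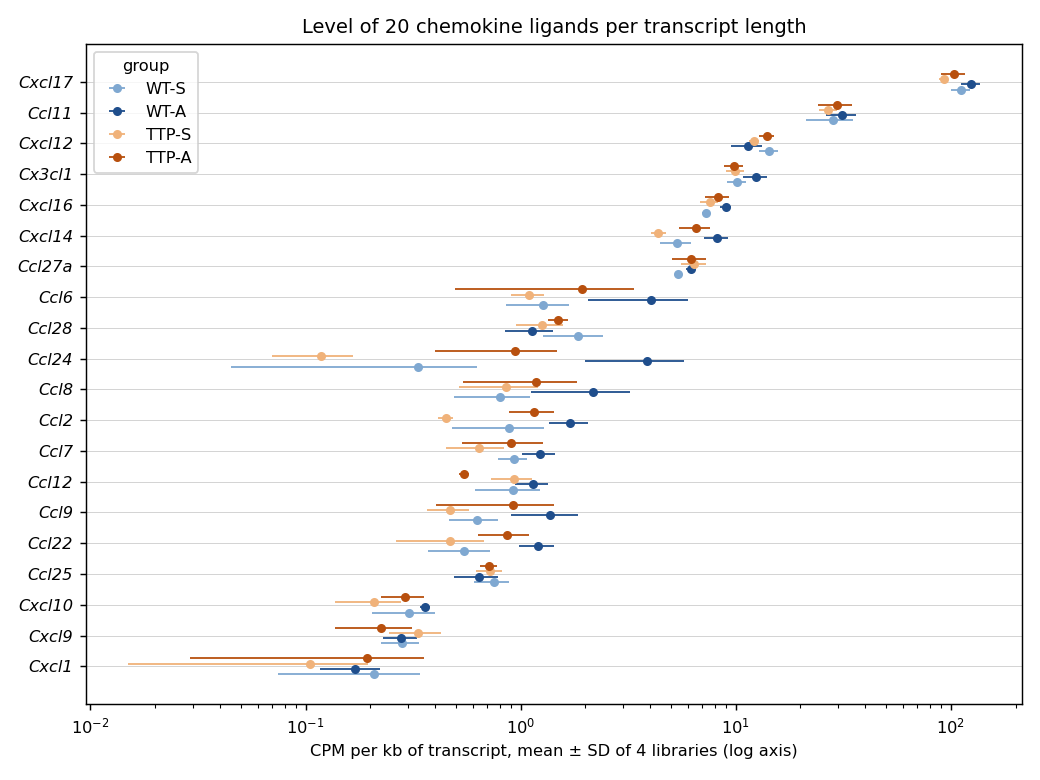
CPM per kilobase of transcript on a log axis for the 20 ligands, as the mean ± SD of 4 libraries in each group, in order of the mean over all groups. Cxcl17 lies above 90 in every group, and Ccl24 has the widest spread between groups, from 0.118 in TTP-S to 3.89 in WT-A.

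Between WT-S and WT-A, 9 of 20 ligands were called, that is, had an adjusted p under 0.05 in edgeR's quasi-likelihood test (45%, against 18.8% of 15385 genes tested). Of these, 8 were higher in WT-A, against 9.8% of all genes called higher: the eosinophil attractant Ccl24, the monocyte and T cell attractants Ccl2, Ccl6, Ccl8 and Ccl9, the Ccr4 ligand Ccl22, and Cxcl14 and Cxcl16. Cxcl12 was the 1 called lower. The fitted log2 difference was above 0 for 15 of 20, with a median of 0.29 against 0.01 over all genes. Groups did not overlap, with WT-A higher, for 7 of 20, where 9.2% of all genes did so and 17.7% had groups that did not overlap in either direction. With 14 libraries, 4 ligands were called, Ccl24, Ccl6, Ccl9 and Cxcl12 (20%, against 10.5% of all genes), and 16 of 20 differences were above 0 (80%, against 51.2%).

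Ccl24 (eotaxin-2), which acts through Ccr3 on eosinophils and lies at chr5:135569937-135573049 on the minus strand, rose most of the 9. Its level was 0.952, 0.0848, 0.440 and 0.256 CPM in WT-S 1 to 4 and 4.62, 4.11, 8.54 and 2.87 CPM in WT-A 1 to 4. WT-A 3 was the highest library, and the lowest WT-A library lay above the highest WT-S library. Behind these values stood 2 to 17 counts in WT-S and 66 to 219 counts in WT-A. Ccl24 passed the filter on low counts through its A libraries, so a call lower in A was hardly possible. The log2 difference was 3.58 (SE 0.543, adjusted p = 0.00147), a 12.0-fold rise. It was 3.38 with 14 libraries (adjusted p = 0.00376) and 4.25 without WT-S 1, the highest WT-S library, and was called under each of the 25 alternatives run. Eosinophil markers summed to 3.01 to 6.83 CPM in WT-S and 3.52 to 9.28 CPM in WT-A over 8 listed genes. Epx, Ear1 and Ear6 were at 0 in all 16 libraries, and only Siglecf was high enough to be tested, with no call here. Their part in the result was not tested.

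The related eotaxin gene Ccl11 was not called in any comparison. It ranged from 23.0 to 39.8 CPM in WT-S, 28.2 to 40.3 in WT-A, 25.8 to 31.7 in TTP-S and 25.9 to 38.0 CPM in TTP-A. The log2 difference between WT-A and WT-S was 0.14 (SE 0.163). Ccl26, the neighbour of Ccl24 on chromosome 5, had no count in any library.

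**Figure D2:**
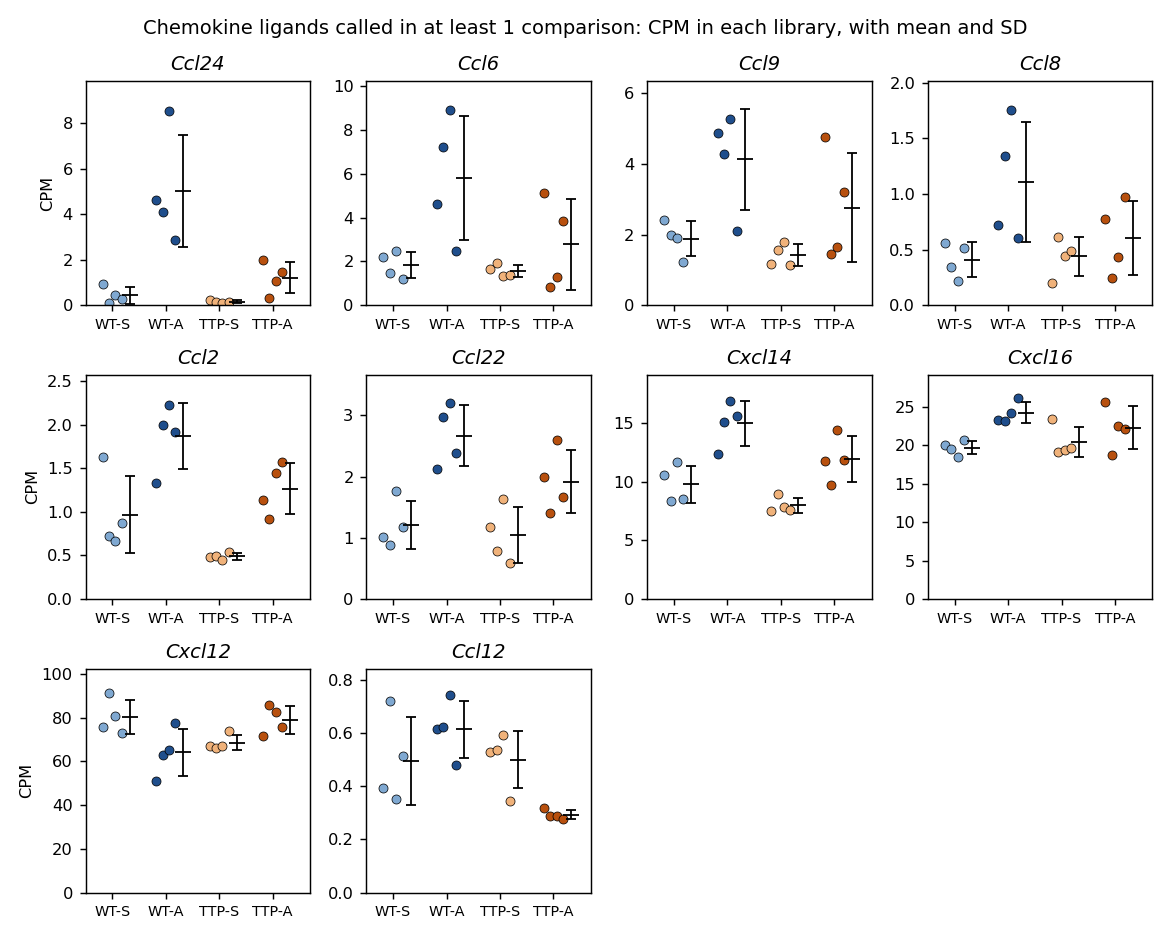
CPM in each library (points, in replicate order) for the 10 ligands called in at least 1 comparison, with the mean and SD of 4 libraries as a bar beside each group; every axis starts at 0. For Ccl24 all 4 WT-A libraries lie above all libraries of the other groups, while Cxcl12 is lowest in WT-A 1.

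Of the 6 measured attractants of monocytes and T cells, 4 rose in WT-A and 2 were not called, where 9.8% of all genes were called higher. Ccl6 and Ccl9 lie next to each other on the minus strand of chromosome 11, at chr11:83587882-83593087 and chr11:83572919-83578636, and both act on Ccr1 of myeloid cells. Ccl6 stood at 2.18, 1.48, 2.46 and 1.18 CPM in WT-S 1 to 4 and at 4.62, 7.21, 8.89 and 2.48 CPM in WT-A 1 to 4. Its groups did not overlap, although WT-A 4 lay barely above WT-S 3. The fitted log2 difference was 1.67 (SE 0.475, adjusted p = 0.0262). Ccl9 stood at 2.41, 1.99, 1.89 and 1.23 CPM in WT-S and at 4.87, 4.28, 5.27 and 2.09 CPM in WT-A. Here WT-A 4 overlapped with WT-S, and the other 3 lay above it. Its log2 difference was 1.14 (SE 0.355, adjusted p = 0.037). Both calls remained with 14 libraries, with adjusted p of 0.0427 for Ccl6 and 0.0419 for Ccl9. They were lost without WT-A 3, where adjusted p was 0.0865 and 0.107, and also without WT-S 2 (0.078 and 0.0814) or WT-S 4 (0.0735 and 0.1), and that of Ccl9 without WT-S 3 (0.0732).

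Ccl2, Ccl7, Ccl11, Ccl12 and Ccl8 follow one another on the plus strand of chromosome 11, from the start of Ccl2 at 82035571 to the end of Ccl8 at 82116799. Ccl2, the main monocyte attractant through Ccr2, stood at 1.62, 0.721, 0.660 and 0.870 CPM in WT-S and 1.33, 2.0, 2.22 and 1.91 CPM in WT-A. WT-S 1 lay above WT-A 1, so the groups overlapped. The log2 difference was 0.96 (SE 0.265, adjusted p = 0.0224). Ccl8 is listed here with the monocyte and T cell attractants and is known from resident macrophages and fibroblasts. It stood at 0.560, 0.339, 0.220 and 0.512 CPM in WT-S and 0.722, 1.34, 1.75 and 0.609 CPM in WT-A. All WT-A values were above all WT-S values, with WT-A 2 and 3 standing higher than the other two. The fitted log2 difference was 1.46 (SE 0.453, adjusted p = 0.0358). With 14 libraries neither was called (adjusted p = 0.122 for Ccl2 and 0.0887 for Ccl8). Leaving out WT-A 3 or any of WT-S 2, 3 and 4 alone also ended both calls, with adjusted p of 0.0584 to 0.0759 for Ccl2 and 0.0593 to 0.125 for Ccl8, which was lost without WT-A 2 as well (0.0587). Ccl7, a Ccr2 ligand like its neighbour, ranged from 0.572 to 0.819 CPM in WT-S and from 0.759 to 1.17 CPM in WT-A. Ccl12, a Ccr2 ligand of rodents, ranged from 0.352 to 0.721 and from 0.478 to 0.741 CPM. Neither was called (adjusted p = 0.299 and 0.446). The 5 neighbours therefore had fitted differences from 0.14 for Ccl11 to 1.46 for Ccl8.

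Macrophage genes were measured beside these myeloid ligands, with 16 libraries only. Of all genes tested, 9.8% were called higher in WT-A and 18.8% in either direction. All 10 listed were tested, 3 were called higher in WT-A (Cd68 by 0.95, Csf1r by 0.54 and C1qc by 0.43 on the log2 scale), 0 lower, and the list median was 0.19. Adgre1, Mrc1 and Cd163 were at -0.12, -0.15 and -0.31 with no call. The summed level was 158 to 198 CPM in WT-S and 171 to 267 CPM in WT-A. The fibroblast list had 3 of 7 and the smooth muscle list 5 of 6 genes called higher in WT-A, with sums of 1287 to 1447 against 1455 to 2297 CPM and of 6576 to 7513 against 7822 to 9476 CPM. Fibroblast sums were 1455 and 1839 CPM in WT-A 1 and 2 and 2297 and 2195 CPM in WT-A 3 and 4. The neutrophil list had 2 of 8 genes tested and both called higher, with sums of 1.23 to 2.18 against 2.85 to 6.20 CPM. Genes of gland cells were called as well. The chief cell sum was 78570 to 153400 CPM in WT-S and 48990 to 103700 CPM in WT-A, with 3 of 5 tested genes called lower (Chia1, Pgc and Gif) and 1 higher (Pga5). The parietal cell list had 3 of 7 genes called lower (Gif, Kcnj15 and Slc26a7), with sums of 23400 to 26750 against 18720 to 27690 CPM, and the blood endothelium list 2 of 6 called higher (Pecam1 and Cdh5), with sums of 232 to 257 against 227 to 296 CPM. WT-A 4 had the highest WT-A sum of both chief and parietal cells. The surface mucous cell list had 0 of 4 genes called, but its sums did not overlap, at 52680 to 60550 against 36430 to 51640 CPM. The SPEM and mucous neck list had 3 of 8 genes called higher, with sums of 1119 to 3369 against 2792 to 3118 CPM. WT-S 1 stood apart, with a SPEM and mucous neck sum of 3369 CPM against at most 1657 CPM in the other WT-S libraries. Its chief cell sum was 78570 CPM, against at least 126400 CPM in the others. It was also the highest WT-S library for Ccl24 and Ccl2. The part of these cells in the ligand differences was not tested.

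Ccl22, made by dendritic cells and macrophages and known to attract regulatory and type 2 helper T cells through Ccr4, was also higher in WT-A. It stood at 1.01, 0.891, 1.76 and 1.18 CPM in WT-S and at 2.13, 2.97, 3.20 and 2.39 CPM in WT-A. The groups did not overlap, and WT-S 3 was the highest of the S libraries. Its log2 difference was 1.14 (SE 0.29, adjusted p = 0.0162), and with 14 libraries it was 1.07 (adjusted p = 0.0639, not called). Without WT-S 2 or WT-A 3 alone, adjusted p was 0.0583 and 0.053. Its neighbours on chromosome 8 are Cx3cl1, not called (adjusted p = 0.065), and Ccl17, the other Ccr4 ligand, which was low.

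Of the 5 homeostatic and membrane-anchored ligands measured, 2 were called higher in WT-A (Cxcl14 and Cxcl16) and 1 lower (Cxcl12), where 18.8% of all genes were called. Cxcl14, an epithelial chemokine, stood at 10.5, 8.36, 11.7 and 8.5 CPM in WT-S and at 12.3, 15.1, 16.8 and 15.6 CPM in WT-A, with no overlap. The log2 difference was 0.62 (SE 0.133, adjusted p = 0.00761), and with 14 libraries it was 0.49 (adjusted p = 0.056, not called). Squamous epithelium, which lines the adjoining forestomach and is a known source of Cxcl14, had marker sums of 63.8 to 353 CPM in WT-S and 154 to 1413 CPM in WT-A, with 2 of 14 tested genes called higher. The sums were 154, 1413, 783 and 176 CPM in WT-A 1 to 4, and their part in the Cxcl14 difference was not tested. Cxcl16, the Cxcr6 ligand, stood at 20.1, 19.6, 18.5 and 20.6 CPM in WT-S and at 23.3, 23.2, 24.3 and 26.1 CPM in WT-A. The groups did not overlap, and the difference was small at 0.30 log2 (SE 0.088, adjusted p = 0.0301). With 14 libraries it was 0.24 and not called (adjusted p = 0.142), and without WT-S 2, WT-S 3, WT-A 3 or WT-A 4 alone its adjusted p was 0.0687 to 0.075. Exons of Cxcl16 overlap those of Zmynd15 on the opposite strand, and whether the counting used strand is not given in the sources used here.

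Cxcl12 was the ligand that fell. It stood at 75.9, 91.1, 80.9 and 73.2 CPM in WT-S and at 51.2, 63.0, 65.2 and 77.4 CPM in WT-A. WT-A 4 lay inside the WT-S range, and the other 3 lay below it. The fitted log2 difference was -0.32 (SE 0.103, adjusted p = 0.0397), a 1.25-fold fall. With 14 libraries the fall was larger, -0.49 (adjusted p = 0.00922). Leaving out single libraries ended the call in 11 of 16 fits, with adjusted p from 0.0503 (without TTP-A 4) to 0.136 (without WT-S 2); the call remained without WT-S 1, WT-A 4, TTP-S 4, TTP-A 1 or TTP-A 2.

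**Figure D3:**
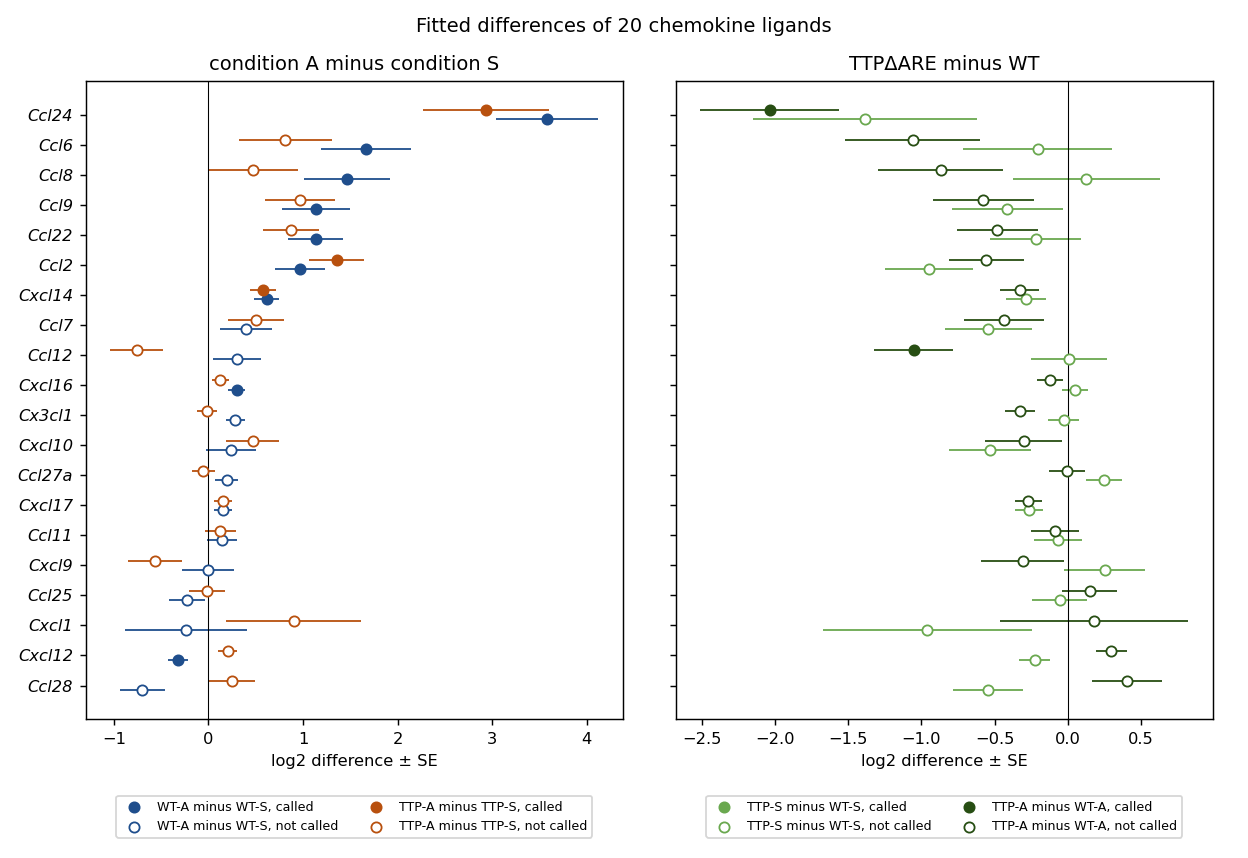
Fitted log2 differences ± SE of the 20 ligands, A minus S in each genotype on the left and TTPΔARE minus WT in each condition on the right; filled points are called and open points are not. Ccl24 lies farthest to the right in both genotypes, and Cxcl12 differs in sign between them.

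Upstream sequences are shown for 5 of the ligands called higher in WT-A, among them the neighbours Ccl6 and Ccl9, which were called together. That of Cxcl12, called lower, is not printed. Of the 20 ligands, 14 have an entry in the RefSeq promoter table (GRCm38.p6), and Ccl24, Ccl2 and Cxcl16 have none. Printed are the 100 bases before the start site of Ccl6 (chr11:83593088-83593187, minus strand), Ccl9 (chr11:83578637-83578736, minus strand), Ccl8 (chr11:82115085-82115184, plus strand), Ccl22 (chr8:94745584-94745683, plus strand) and Cxcl14 (chr13:56296552-56296651, minus strand). Start sites are those of RefSeq. In GENCODE vM21, Ccl22 starts at 94745590, inside its printed bases. Capitals mark matches to the TATA box TATAAA or to the NF-kB motif on either strand.
Ccl6: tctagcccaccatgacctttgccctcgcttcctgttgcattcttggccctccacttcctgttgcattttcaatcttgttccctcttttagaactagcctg
Ccl9: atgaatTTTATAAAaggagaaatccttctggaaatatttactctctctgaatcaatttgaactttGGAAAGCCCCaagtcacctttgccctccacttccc
Ccl8: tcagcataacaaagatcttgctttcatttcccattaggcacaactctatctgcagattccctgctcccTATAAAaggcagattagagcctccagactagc
Ccl22: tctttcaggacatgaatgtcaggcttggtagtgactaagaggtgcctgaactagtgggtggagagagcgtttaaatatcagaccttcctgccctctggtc
Cxcl14: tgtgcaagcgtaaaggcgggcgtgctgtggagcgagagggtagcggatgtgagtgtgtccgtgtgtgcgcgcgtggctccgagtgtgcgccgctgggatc
Ccl8 holds TATAAA 32 to 27 bases before the start site, Ccl9 holds it 92 to 87 bases before, and Ccl6, Ccl22 and Cxcl14 do not hold it within these bases. Over windows from 250 bases before to 50 bases after the start, TATAAA was found in 6 of 17 promoters of the ligands (35.3%, against 13.6% of 32851 promoters). The NF-kB motif, bound by the factor that glucocorticoids are known to restrain, was found in 4 of 17 (23.5%, against 4.51%), those of Cxcl1, Cxcl10, Ccl9 and Ccl27a. AP-1 was matched in 4 of 17 (23.5%, against 5.2%), the STAT letters TTCNNNGAA in 1 (5.88%, against 8.3%) and the interferon-response letters TTTCNNTTTC in 2 (11.8%, against 3.44%). The glucocorticoid receptor letters GNACANNNTGTNC were matched in none, against 0.475% of all promoters. All motifs were searched on both strands, and promoters of the same gene can overlap. Of the 4 ligands with the NF-kB motif, Ccl9 was called in WT-A, and Cxcl1, Cxcl10 and Ccl27a were called in no comparison.

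Between TTP-S and TTP-A, 3 of 20 ligands were called (15%, against 2.9% of all genes tested), all of them higher in TTP-A (against 1.55%). They were Ccl24, Ccl2 and Cxcl14, each also called in WT mice. Of the 20 fitted differences, 15 were above 0, with a median of 0.36, against 0.00 over all genes. Groups did not overlap for 3 ligands with TTP-A higher and 1, Ccl12, with TTP-A lower, where 13.7% of all genes had groups that did not overlap.

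Ccl24 stood at 0.243, 0.124, 0.0988 and 0.148 CPM in TTP-S 1 to 4, from 6, 3, 2 and 3 counts, and at 2.0, 0.338, 1.06 and 1.48 CPM in TTP-A 1 to 4. TTP-A 2 was the lowest TTP-A library, at 7 counts, and still lay above all TTP-S libraries. Its log2 difference was 2.93 (SE 0.665, adjusted p = 0.0294). The eosinophil sum was 2.21 to 3.16 CPM in TTP-S and 4.20 to 7.92 CPM in TTP-A, and Siglecf, the 1 gene tested of that list, was called higher by 1.22 log2 (adjusted p = 0.0417). Its part in the Ccl24 difference was not tested.

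Ccl2 stood at 0.486, 0.494, 0.445 and 0.541 CPM in TTP-S and at 1.14, 0.918, 1.44 and 1.57 CPM in TTP-A. The TTP-S libraries lay close together, and each TTP-A library exceeded them. The log2 difference was 1.36 (SE 0.293, adjusted p = 0.0246). Cxcl14 stood at 7.54, 8.94, 7.86 and 7.62 CPM in TTP-S and at 11.7, 9.71, 14.4 and 11.8 CPM in TTP-A, again with no overlap. The fitted log2 difference was 0.58 (SE 0.136, adjusted p = 0.0359). Squamous sums were 149 to 738 CPM in TTP-S and 80.3 to 422 CPM in TTP-A, with 0 of 14 genes called. Other lists had sums that did not overlap between the groups. The SPEM and mucous neck sum was 1164 to 1505 CPM in TTP-S and 1637 to 4196 CPM in TTP-A (2 of 8 genes called higher), the T cell sum 4.43 to 6.56 against 7.13 to 8.54 CPM, the B and plasma cell sum 415 to 435 against 444 to 492 CPM (1 called higher) and the blood endothelium sum 239 to 264 against 270.1 to 291 CPM. Lower in TTP-A were the sums of surface mucous cells, 55850 to 60080 against 29830 to 52910 CPM (1 of 4 called lower), and of adipose tissue, 136 to 229 against 76.8 to 123 CPM (2 of 6 called lower). The exocrine pancreas sum was lower too, 21.2 to 27.4 against 15.5 to 19.8 CPM, with its 1 tested gene, Cela1, called lower. Of all genes tested, 2.9% were called in either direction. The part of these cells in the ligand differences was not tested. All 3 calls ended when any 1 of the 8 compared libraries other than TTP-A 2 was left out, with adjusted p of up to 0.0898 for Ccl2, 0.119 for Ccl24 and 0.113 for Cxcl14.

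Of the other myeloid ligands, Ccl6, Ccl9, Ccl8 and Ccl7 split the TTP-A libraries, and Ccl12 did not. Ccl6 stood at 5.13 and 3.84 CPM in TTP-A 1 and 4 but at 0.821 and 1.30 CPM in TTP-A 2 and 3, below all of TTP-S (1.33 to 1.94 CPM). Ccl9 stood at 4.77 and 3.20 CPM in TTP-A 1 and 4 and at 1.45 and 1.63 CPM in TTP-A 2 and 3, inside the TTP-S range of 1.13 to 1.78 CPM. Ccl8 showed the same order, with 0.772 and 0.972 CPM in TTP-A 1 and 4 against 0.242 and 0.432 CPM in TTP-A 2 and 3. Ccl7 stood at 1.14 and 0.695 CPM in TTP-A 1 and 4 against 0.435 and 0.624 CPM in TTP-A 2 and 3. None of these was called (adjusted p = 0.48, 0.19, 0.734 and 0.46 in this order). The split was not limited to myeloid ligands. Ccl24, Ccl11, Cxcl17 and Cx3cl1 were also higher in TTP-A 1 and 4 than in TTP-A 2 and 3, and Cxcl12 was lower. The remaining described ligands did not divide the libraries so. In WT-A the library that stood low for Ccl6, Ccl9, Ccl8 and Ccl24 was WT-A 4. Macrophage sums were 207 and 203 CPM in TTP-A 1 and 4, 179 and 192 CPM in TTP-A 2 and 3, and 134 to 188 CPM in TTP-S. Of the 10 macrophage genes, Cd163 was called lower in TTP-A (-1.19, adjusted p = 0.0154) and none higher, with a list median of 0.24. Several other cell type lists divided these libraries in the same way, and others did not. The SPEM and mucous neck sum was 4196 and 2767 CPM in TTP-A 1 and 4 and 1637 and 1924 CPM in TTP-A 2 and 3, and the neutrophil sum was 3.13 and 3.57 against 1.93 and 1.87 CPM. The surface mucous cell sum was lower in TTP-A 1 and 4, at 29830 and 35180 against 52910 and 40610 CPM, as were the chief cell sum, 93820 and 111300 against 119900 and 143700 CPM, and the parietal cell sum, 21130 and 22260 against 24670 and 24690 CPM. The eosinophil sum was higher in TTP-A 1 and 4, at 7.72 and 7.92 against 4.20 and 5.86 CPM, and the B and plasma cell, fibroblast, smooth muscle and interferon response sums were higher there too. The T cell, blood endothelium, lymphatic endothelium, squamous epithelium, adipose tissue and exocrine pancreas sums did not divide the libraries so. The part of these cells in the split was not tested. Ccl22 ranged from 0.590 to 1.63 CPM in TTP-S and from 1.40 to 2.59 CPM in TTP-A, with a log2 difference of 0.87 that was not called (adjusted p = 0.136).

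**Figure D4:**
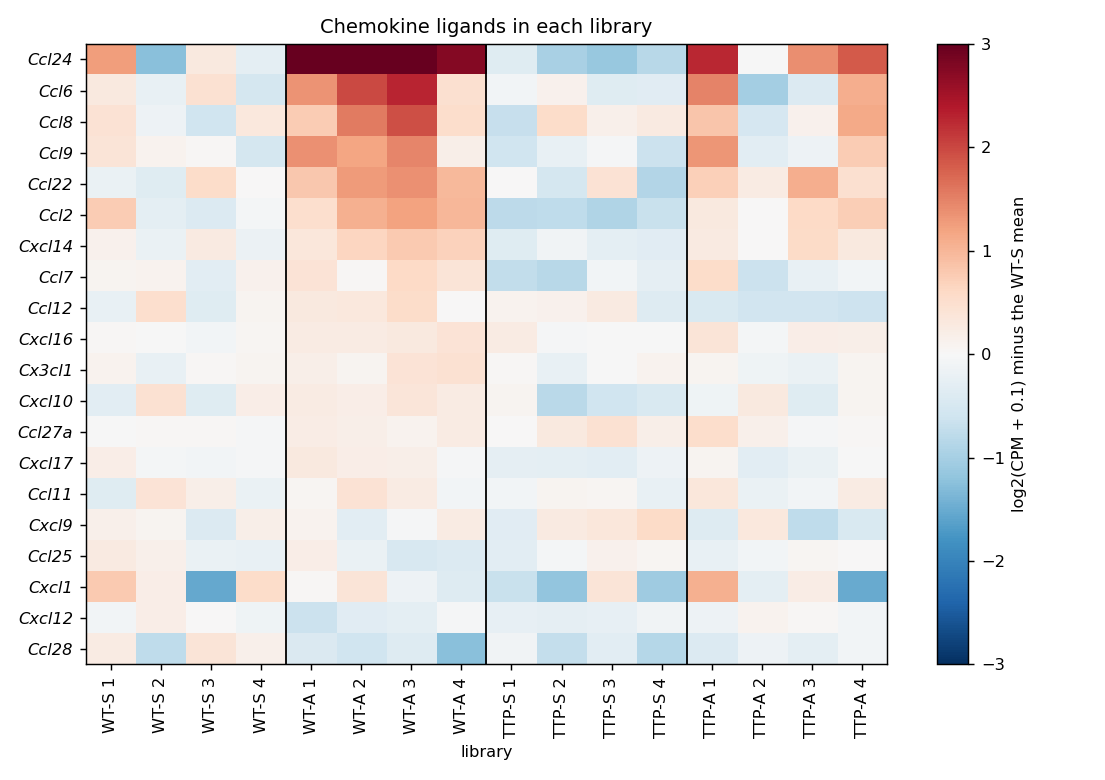
Level of the 20 ligands in each of the 16 libraries, as log2(CPM + 0.1) minus the mean of the 4 WT-S libraries, with colours cut at -3 and 3. The top 7 ligands are above the WT-S mean in all 4 WT-A libraries, and in TTP-A the libraries 1 and 4 are above libraries 2 and 3 for Ccl6, Ccl8, Ccl9 and some other ligands.

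Between the genotypes in condition S, 0 of 20 ligands were called with edgeR, against 0.0325% of all genes tested, and DESeq2 and limma voom also called 0. An unadjusted p under 0.05 was reached by 4 of 20 (20%, against 7.49% of all genes). Ccl2 was the one with the lowest p, at 0.660 to 1.62 CPM in WT-S and 0.445 to 0.541 CPM in TTP-S. All TTP-S values were below all WT-S values, with a log2 difference of -0.95 (SE 0.301, adjusted p = 0.396). Cxcl17 was the other ligand whose groups did not overlap (2 of 20, where 6.74% of all genes had such groups), with 79.5 to 97.3 CPM in WT-S and 67.8 to 75.5 CPM in TTP-S (log2 difference -0.26, adjusted p = 0.46). The other two were Ccl28 (-0.54, adjusted p = 0.627) and Cxcl12 (-0.23, adjusted p = 0.633). Of all 20 differences, 5 were above 0, with a median of -0.22 against 0.00 over all genes.

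In condition A, 2 of 20 ligands were called between the genotypes (10%, against 5.17% of all genes tested), and both were at a lower level in the TTPΔARE libraries. Ccl24 was between 0.338 and 2.0 CPM in TTP-A and between 2.87 and 8.54 CPM in WT-A, with no overlap. Its log2 difference was -2.04 (SE 0.474, adjusted p = 0.0289), a 4.1-fold lower level. Ccl12 stood at 0.318, 0.290, 0.288 and 0.278 CPM in TTP-A, from 6 to 7 counts in a library, and at 0.613, 0.621, 0.741 and 0.478 CPM in WT-A, from 11 to 19 counts. All TTP-A values were below all WT-A values, and they also lay below all 4 TTP-S values. The log2 difference was -1.05 (SE 0.268, adjusted p = 0.0373). Differences were above 0 for 4 of 20 ligands, with a median of -0.32 against 0.00 over all genes, and the 2 ligands called were the 2 whose groups did not overlap (12.2% of all genes). Gland and muscle lists with 2 or more genes called were smooth muscle (4 of 6 called lower in TTP-A, sums of 6288 to 7525 against 7822 to 9476 CPM in WT-A), SPEM and mucous neck (2 of 8 lower, 1637 to 4196 against 2792 to 3118 CPM) and chief cells (2 of 5 tested higher, 93820 to 143700 against 48990 to 103700 CPM). Macrophage genes had no call, with sums of 179 to 207 against 171 to 267 CPM, and the part of these cells was not tested.

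Both calls ended with 14 libraries, where Ccl24 was at -1.83 (adjusted p = 0.0732) and Ccl12 at -1.06 (adjusted p = 0.093) and the 1 ligand called (5%, against 1.81% of all genes) was Cxcl12, higher in TTP-A by 0.46 log2 (adjusted p = 0.0321). Without WT-A 3 alone, adjusted p was 0.105 for Ccl24 and 0.123 for Ccl12, and leaving out TTP-A 2, 3 or 4 also ended both calls (0.0609 to 0.0982), as did TTP-A 1 for Ccl12 (0.0616). Cxcl12 stood at 71.8, 85.8, 82.4 and 75.6 CPM in TTP-A, against 51.2 to 77.4 CPM in WT-A, and with 16 libraries its difference of 0.30 was not called (adjusted p = 0.0895). In TTP mice it was 67.2, 66.2, 67.1 and 73.8 CPM in S, so A was on the higher side there and on the lower side in WT mice.

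The interaction, the A minus S difference in TTPΔARE mice minus that in WT mice, tests directly whether the response to condition A differed by genotype. With edgeR, 0 of 20 ligands were called, against 0.0585% of all genes tested. At an unadjusted p under 0.05 there were 3 (15%, against 15.2% of all genes), Ccl12, Ccl28 and Cxcl12, a share near that of all genes. Cxcl12 had the lowest p, with an interaction of 0.53 log2 (SE 0.145, adjusted p = 0.146). It was called with 14 libraries (0.69, adjusted p = 0.0359), and DESeq2 and limma voom each called 1 ligand, Cxcl12, with 16 libraries. These fits called 0.286%, 1.81% and 1.11% of all genes. For Ccl24 the interaction was -0.65 (SE 0.98, adjusted p = 0.761), so the smaller rise fitted in TTPΔARE mice was not shown to differ from that in WT mice. For Ccl6 it was -0.86 (SE 0.683) and for Ccl8 -0.99 (SE 0.661). Ccl28 and Ccl12 had interactions of 0.95 (SE 0.34, adjusted p = 0.233) and -1.06 (SE 0.374, adjusted p = 0.25).

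Among the mucosal ligands, none was called in any comparison. Ccl28, an epithelial attractant of plasma cells through Ccr10, stood at 7.78, 3.82, 8.67 and 7.32 CPM in WT-S and at 4.87, 4.31, 5.03 and 2.7 CPM in WT-A. WT-S 2 lay among the WT-A libraries, and the log2 difference of -0.70 missed the threshold (SE 0.24, adjusted p = 0.0524). Without WT-S 2 it was -0.90 and called (adjusted p = 0.0179), as it was without WT-A 1 (0.0376) and with DESeq2 (0.0239). It ranged from 3.59 to 6.08 CPM in TTP-S and from 4.90 to 6.25 CPM in TTP-A. Ccl25, which attracts Ccr9-bearing cells to the small intestine, ranged from 1.33 to 2.29 CPM over all libraries. Ccl27a, a Ccr10 ligand of epithelia, ranged from 5.22 to 7.77 CPM. Exons of Ccl27a overlap those of Il11ra1, and exons of Ccl25 overlap those of Elavl1, on the opposite strand.

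Ligands of Cxcr3 and Cxcr2 were low and without a call. Cxcl9 and Cxcl10, induced by interferons and known to attract T cells through Cxcr3, ranged from 0.432 to 1.23 CPM and from 0.329 to 0.933 CPM. Cxcl10 shares exon bases with Art3 on the opposite strand. Cxcl1, the neutrophil attractant whose 3' UTR holds both nonamers shown above, reached 10 counts in exactly 4 libraries and ranged from 1 to 17 counts. It was the ligand just inside the level needed to be described, with WT-S 3 and TTP-A 4 at 1 count each. Ccl3, a Ccr1 ligand, lay just outside it, with 10 counts or more in 3 libraries.

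Cx3cl1, a membrane-anchored ligand of monocytes and tissue macrophages whose 3' UTR holds the other nonamer, ranged from 28.6 to 36.1 CPM in WT-S, 35.4 to 46.3 in WT-A, 28.7 to 36.0 in TTP-S and 29.2 to 35.7 CPM in TTP-A. WT-A 3 and WT-A 4 were the 2 highest libraries. The difference between WT-A and WT-S was 0.29 log2 with 16 libraries (adjusted p = 0.065) and 0.13 with 14 (adjusted p = 0.497). Cxcl17 ranged from 79.5 to 97.3 CPM in WT-S, 82.0 to 104 in WT-A, 67.8 to 75.5 in TTP-S and 67.5 to 89.2 CPM in TTP-A. TTP-A minus WT-A was -0.27 for Cxcl17 (adjusted p = 0.0895) and -0.33 for Cx3cl1 (adjusted p = 0.0732). With 14 libraries it was -0.36 for Cxcl17 (adjusted p = 0.0742) and -0.16 for Cx3cl1 (adjusted p = 0.431).

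The 19 low ligands were not described by group beyond their counts. No count was found in any of 16 libraries for 6 of them, Ccl19, Ccl21a, Ccl21b, Ccl21c, Ccl26 and Ccl27b. All but Ccl26 belong to near-identical gene copies known on mouse chromosome 4, and how reads that match several copies were counted is not given in the sources used here, so these zeros are uncertain. The ligands of neutrophils were at 0 to 10 counts for Cxcl5, 0 to 5 for Cxcl2 and Cxcl15 and 0 to 2 for Cxcl3. Of the other attractants of monocytes and T cells, Ccl5 had 1 to 15 counts, Ccl3 0 to 16 and Ccl4 0 to 8. Ccl17 and Ccl1, ligands of Ccr4 and Ccr8, had 1 to 16 and 0 to 7 counts. Xcl1, made by T and natural killer cells, had 2 to 10 counts, Cxcl13, which organises B cell follicles, 0 to 10, and Ccl20, the Ccr6 ligand, 0 to 5. Cxcl11, which the annotation lists as a polymorphic pseudogene, had 0 to 2 counts. None of the low ligands passed the filter on low counts, so they were not tested. Between WT-S and WT-A, 3 of the 13 with any count did not overlap, in counts or in CPM, each higher in WT-A. Of all genes tested, 9.2% did so in CPM in that direction. They were picked out after their values were seen, and they are not among the genes tested. Ccl17 had 1, 3, 5 and 2 counts in WT-S and 8, 16, 11 and 9 in WT-A, Cxcl5 had 1 in each WT-S library and 4, 10, 5 and 3 in WT-A, and Cxcl2 had 1, 0, 0 and 0 against 3, 5, 5 and 5.

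Receptors give the other side of the pathway. All 23 receptors examined were in the table and 15 were tested. Between WT-S and WT-A, 4 of 15 were called (26.7%, against 18.8% of all genes), all higher in WT-A: Ccr4, Ccr7, Cxcr4 and Cxcr6. With 14 libraries 5 were called (33.3%, against 10.5%): Ccr1, Ccr2, Ccr4, Cxcr4 and Cxcr6. Between TTP-S and TTP-A, 1 was called (6.67%, against 2.9%), Cxcr6, and Ccr2 joined it with 14 libraries (13.3%, against 6.33%). None was called between the genotypes in either condition or in the interaction with edgeR, where 2, 3 and 0 had an unadjusted p under 0.05 (13.3%, 20% and 0%, against 7.49%, 27.5% and 15.2% of all genes). Ccr4 and Ccr7 each reached 10 counts in 5 libraries, all of condition A. In S libraries Ccr4 had 1 to 6 counts, Ccr7 2 to 8 and Cxcr6 4 to 14. These receptors passed the filter on low counts through their A libraries, so a call lower in A was hardly possible for them.

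Cxcr6, the receptor of Cxcl16 on effector T cells, stood at 0.280, 0.170, 0.352 and 0.461 CPM in WT-S and 0.974, 1.52, 0.663 and 0.826 CPM in WT-A. In TTPΔARE mice it stood at 0.405, 0.576, 0.445 and 0.344 CPM in S and 0.954, 1.01, 1.49 and 1.25 CPM in A. Neither pair of groups overlapped, and the log2 differences were 1.66 (SE 0.323, adjusted p = 0.00443) and 1.39 (SE 0.305, adjusted p = 0.026). Its ligand Cxcl16 differed by 0.30 and 0.13 in the same comparisons.

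Ccr4, the receptor of Ccl22, stood at 0.0512 to 0.280 CPM in WT-S and at 0.866, 0.621, 0.702 and 0.261 CPM in WT-A. WT-A 4 overlapped with WT-S, as it did for Ccl9. The fitted log2 difference was 1.85 (SE 0.424, adjusted p = 0.00979). Cxcr4, the receptor of Cxcl12, was between 1.91 and 3.86 CPM in WT-S and between 4.43 and 6.73 CPM in WT-A, a log2 difference of 0.87 (SE 0.211, adjusted p = 0.0132), while Cxcl12 itself fell. Ccr7, which guides dendritic cells and T cells to lymph nodes, differed by 1.38 (SE 0.426, adjusted p = 0.0355), and its ligands Ccl19 and Ccl21 were among those without a count.

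Ccr2, the monocyte receptor of Ccl2, stood at 6.21, 7.66, 3.36 and 1.52 CPM in WT-A 1 to 4, against 3.13 to 3.90 CPM in WT-S. WT-A 1 and 2 were above all WT-S libraries and WT-A 4 was below them. Its log2 difference was 0.44 with 16 libraries (adjusted p = 0.405) and 1.0 with 14 (adjusted p = 0.0315). Ccr3, the receptor of Ccl24 and Ccl11, was too low to be tested, with 0 to 30 counts in a library and its highest value, 1.03 CPM, in WT-A 2. Cxcr2, the receptor of Cxcl1, Cxcl2 and Cxcl5, was not tested either.

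**Figure D5:**
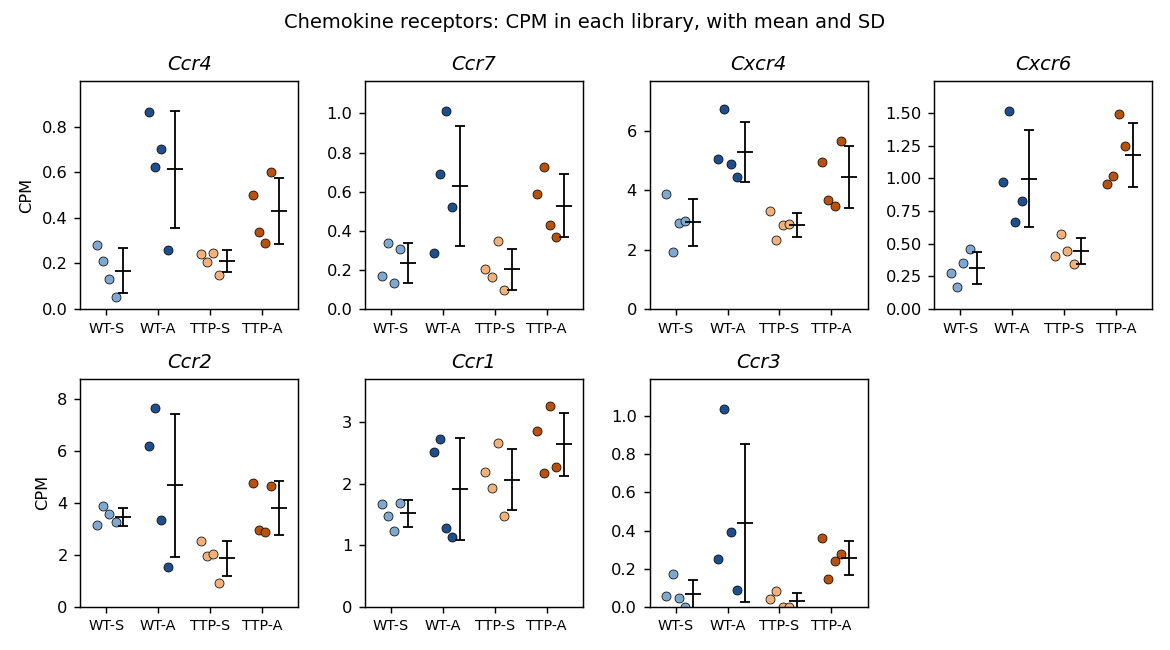
CPM in each library (points, in replicate order) for 7 chemokine receptors, with the mean and SD of 4 libraries as a bar beside each group. Cxcr6 is higher in all A than in all S libraries of both genotypes, and Ccr2 in WT-A runs from 1.52 to 7.66 CPM.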

How the data were processed

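RNA was measured by sequencing in 16 stomach libraries. The deposited table gives raw counts, whole numbers of reads for each gene symbol. The submitters' processing notes name STAR 2.7.0f, featureCounts, Subread 1.6.4, DESeq2 and the build mm10, and the annotation, strandedness and handling of multi-mapping reads are not given in the sources used here. Total counts ranged from 17453930 to 25849472 per library.

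The test was run on these counts with edgeR 4.0.16 (R 4.3.3). Genes kept by filterByExpr (15385, all 20 described ligands among them) were scaled by TMM, and a quasi-likelihood model with 1 mean per group was fitted over 16 libraries. P-values were adjusted by Benjamini-Hochberg over all genes, and called means an adjusted p under 0.05. CPM are scaled by TMM. Levels per kilobase used the longest GENCODE vM21 transcript (GRCm38, the assembly of mm10). Marker sums are summed CPM over lists of cell type genes, shown for cells that the called ligands attract or may come from.

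Alternatives were DESeq2 1.42.0, limma 3.58.1 voom, other filters and scaling, a replicate block, fits on fewer groups and fits without single libraries. WT-A 3 and WT-A 4 were left out together in the 14-library fit. Members and lists were chosen with earlier results of these data known. Named are all members by the rule above, the listed receptors and, with their values, Pf4 and Ppbp. 1 item is not reported here. No 2 libraries of a group agreed within sampling noise (chi-square divided by its degrees of freedom was 4.69 to 89.5 over 24 pairs).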

Additional observations from a re-analysis of the deposited data

Results flagged for a closer look

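The 20 ligands in 4 groups give 80 sets of 4 libraries, and in 4 of them 1 library stood apart from the other 3 by more than Dixon's critical share of the whole range at 95%. Chance gives about 1 in 20 such sets.

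Cxcl16 was at 23.4 CPM in TTP-S 1, against 19.1 to 19.7 CPM in the other TTP-S libraries. Cxcl12 was at 73.8 CPM in TTP-S 4, against 66.2 to 67.2 CPM. In WT-S, Cxcl17 was at 97.3 CPM in WT-S 1, against 79.5 to 82 CPM, and Ccl7 was at 0.572 CPM in WT-S 3, against 0.784 to 0.819 CPM.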

How the results depend on the processing

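No called difference reversed under any alternative run. The count of ligands called between WT-S and WT-A was 9, and it was 3 when only the groups compared were fitted (Ccl22, Ccl24 and Cxcl14; 3.98% of all genes), 4 with 14 libraries (10.5%) and between 2 (without WT-A 3; 8.27%) and 10 (without WT-A 1; 32.4%) when single libraries were left out. It was 4 or fewer also without WT-S 2, 3 or 4. Between TTP-S and TTP-A the count of 3 became 5 with limma voom, which added Ccl22 and Ccl9 and called 15.2% of all genes, and ranged from 0 to 3 without single libraries. Between WT-A and TTP-A the count of 2 became 1 without a filter on low counts (2.77% of all genes), 0 with only the groups compared (0.0065%, 1 gene), 1 with 14 libraries (1.81%) and from 0 to 4 without single libraries; the 4 came without WT-A 1, where 20.8% of all genes were called. The interaction count of 0 became 1 (Cxcl12) with DESeq2, limma voom and 14 libraries. The cause was not tested. The summed level of all members without TMM scaling was 334 CPM in WT-A and 241 CPM in TTP-S, against 311 and 252 CPM. A separate interaction fit on only the groups compared does not exist.

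Replicate numbers did not pair the libraries: deviations of same-numbered libraries correlated at -0.415 to 0.327. With the replicate number as a block, 9 ligands were called between WT-S and WT-A (Cx3cl1 in place of Ccl8), 3 between TTP-S and TTP-A, 0 between WT-S and TTP-S, 2 between WT-A and TTP-A (Ccl24 and Cx3cl1) and 0 in the interaction. The 19 ligands that did not pass the filter on low counts were not tested in the fit with 16 libraries.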

Other observations

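Pf4 and Ppbp, CXC ligands of platelets whose symbols fall outside the naming rule, were measured beside the family. Pf4 ranged from 1.08 to 1.74 CPM in WT-S, 1.21 to 2.30 in WT-A, 1.43 to 1.85 in TTP-S and 1.40 to 1.92 CPM in TTP-A, with no call in any comparison. Ppbp was too low to be tested, at 0.0780 to 1.34 CPM in WT-A and at most 0.363 CPM in the other groups.

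The decoy receptors Ackr1, Ackr2, Ackr3 and Ackr4, which bind chemokines without attracting cells, had no call between A and S in either genotype. Ackr3, which takes up Cxcl12, was the highest of them at 10.6 to 16 CPM over all libraries, and its log2 difference between WT-A and WT-S was 0.22 (SE 0.101, adjusted p = 0.133).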
